A study of Mus musculus with 6 samples.

Results

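Mptx1 and Mptx2, the mouse genes for mucosal pentraxin, were 2 of the 27546 genes with an FPKM value (fragments scaled by exon length and by library depth) in RNA-Seq libraries of distal colon. The pair was chosen by its FPKM values in this comparison, so the levels of both genes by genotype are given below as a description, without a test. The mice were 6 of the C57BL/6 strain (C57BL/6J in the methods of the study), 3 with the long noncoding RNA gene Gm31629 knocked out (Gm31629-/-) and 3 WT littermates. Each of the 6 libraries was taken here as 1 mouse, although the methods of the study speak of pooled RNA. All 6 mice were 8 weeks old and had taken 3% DSS (dextran sulfate sodium, which damages the lining of the colon) in their drinking water for 7 days, and tissue was collected on day 8. The 2 genotypes were therefore compared under injury, and no untreated mice were analysed here. Values written as 3 numbers are for mice 1, 2, and 3 of a genotype, in that order.

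Pentraxins are secreted, calcium-dependent proteins that assemble into rings and bind microbial surfaces and cell debris. The classical short pentraxins, C-reactive protein and serum amyloid P component, are made in the liver and hand their targets to complement through C1q and to phagocytes through Fcγ receptors. Mucosal pentraxin is a short pentraxin of the gut epithelium, first described in rat colon as a transcript that responds to dietary heme, and Mptx2 is known in mice as a marker of Paneth cells, the antimicrobial cells at the base of small intestinal crypts.

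The libraries held an estimated 18005900 to 18795000 mapped fragments, and values above 0 were listed for 22456 to 23600 genes in Gm31629-/- mice and 19938 to 20118 genes in WT mice. The library of Gm31629-/- mouse 1 held transcripts of 4 Y-linked genes and almost no Xist, the pattern of a male, and it was also the library with the highest Mptx1. The other 5 libraries had Xist at 8.35 to 13.8 FPKM and no fragments of these Y-linked genes, the pattern of females. The methods of the study name male mice. Sex by these transcripts therefore varied within the Gm31629-/- group, and its part in the values below was not tested. Whether tissue was taken from separate litters or on separate days is not given, so p-values measure the spread between these 6 samples. With limma on log2(FPKM + 1), 2704 of 14657 tested genes (18.4%) were called higher in Gm31629-/- mice and 680 (4.64%) lower, 3384 (23.1%) in all, where a call needs both an adjusted p under 0.05 and a change of more than 1 on the log2 scale. The middle change of all tested genes was 0.15 on the log2 scale, and −0.06 when libraries were put on the median ratio scale, which gave 2232 genes higher and 1217 lower and moved the share of calls that were higher from 79.9% to 64.7%. The groups did not overlap for 57.8% of tested genes, and every count below is to be read against these shares.

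The pair are close copies on chromosome 1, where the methods of the study also place the deleted region of Gm31629. The distance of that region from the pair was not examined here, and its part in the values of genes on this chromosome was not tested. Mptx1 (ENSMUSG00000026531) lies on the forward strand of GRCm38 at chr1:174330518-174332873, and Mptx2 (ENSMUSG00000079180) on the reverse strand at chr1:173274382-173277777. Each has 2 exons and a coding sequence of 657 bases, of which 604 (91.9%) are identical, without gaps. Their transcripts of 799 and 794 bases in GENCODE M21 share 91.9% of 799 aligned positions, with 112 bases as the longest run in common. The most different 90 bases of the coding sequence, coding bases 535 to 624 within exon 2, are printed because a read from this stretch can be assigned to 1 copy. The 15 bases at which the copies differ are in capitals.
Mptx1, chr1:174332664-174332753, forward strand: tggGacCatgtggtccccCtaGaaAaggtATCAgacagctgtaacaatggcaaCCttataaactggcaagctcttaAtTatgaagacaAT
Mptx2, chr1:173274497-173274586, reverse strand: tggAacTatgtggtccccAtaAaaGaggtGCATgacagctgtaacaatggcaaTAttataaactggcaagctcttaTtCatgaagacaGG
Of all 100-base windows of the Mptx1 transcript, 23 of 700 (3.29%) were also present in Mptx2, as were 134 of 750 windows of 50 bases (17.9%) and 0 of 650 windows of 150 bases. No such window was shared with the transcript of any other gene. The length of the reads, and how reads that match both copies were counted, are not given in the sources used here, so small values of either copy are uncertain.

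Mptx1 was among the most abundant transcripts of the Gm31629-/- colons and was scarce in the WT colons. Its FPKM was 1378, 334, and 802 in Gm31629-/- mice and 4.26, 2.50, and 0.333 in WT mice, which is 838 ± 523 against 2.37 ± 1.97 (SD, n = 3 each). The groups did not overlap, and the lowest Gm31629-/- library stood 78.3-fold above the highest WT library. These values rested on 20256, 4919, and 11776 fragments in Gm31629-/- mice and on 63, 36, and 5 fragments in WT mice, where 1 fragment is worth 0.0666 to 0.0695 FPKM. The ratio of the group means was 354 (240 to 461 without 1 Gm31629-/- mouse, 591 without WT mouse 1, and 248 without WT mouse 3), and the difference of the mean log2(FPKM + 1) was 7.95 (SD between mice 1.03 in Gm31629-/- and 1.02 in WT). Without Gm31629-/- mouse 1 this difference was 7.48. The spread within a genotype was wide as well, with the highest library 4.13-fold above the lowest among Gm31629-/- mice and 12.8-fold among WT mice. In WT mouse 3, with 5 fragments, the level was only just above the 3 fragments that a count of 0 would allow.

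**Figure D1:**
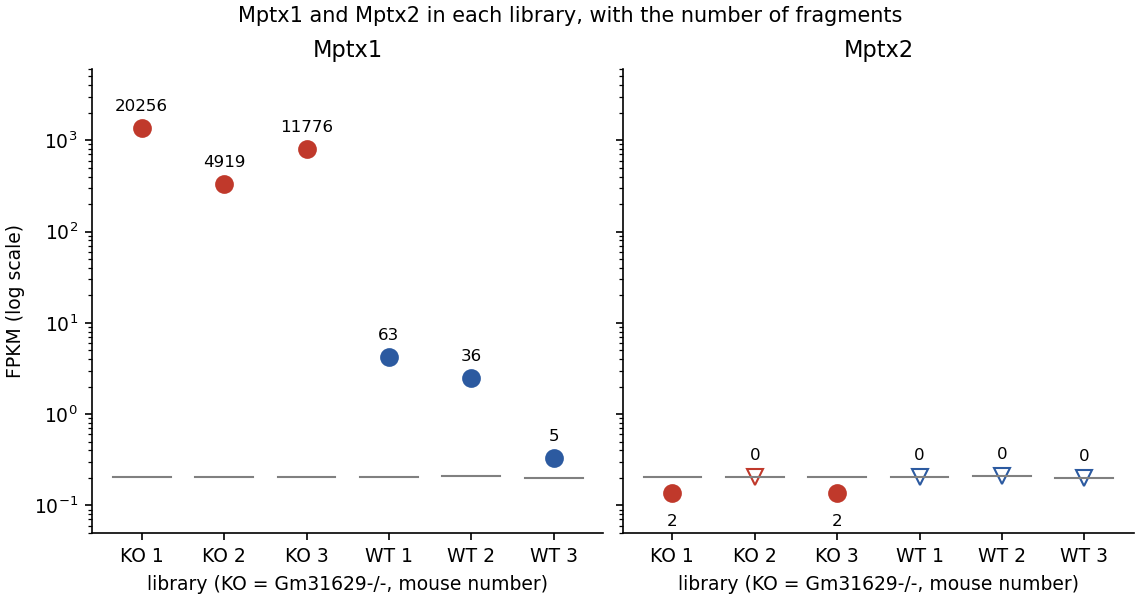
FPKM of Mptx1 (left) and Mptx2 (right) on a log axis in each of the 6 libraries, with the number of fragments beside each point; filled circles are values, open triangles are libraries at 0 drawn at the level of 3 fragments, and grey bars mark that level. Mptx1 lies between 334 and 1378 FPKM in the Gm31629-/- libraries and between 0.333 and 4.26 FPKM in the WT libraries, whereas no library has more than 2 fragments of Mptx2.

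Mptx2 was at the limit of detection in every library. It had 2, 0, and 2 fragments in Gm31629-/- mice and 0 in each WT mouse, or 0.137, 0, and 0.137 FPKM against 0. A library at 0 allows up to 3 fragments, which is 0.201 to 0.210 FPKM in these 4 libraries, so no difference of Mptx2 between genotypes was detectable at this depth and no fold change is given. With a mean of 0.0457 FPKM it did not pass the minimum mean of 0.5 FPKM for testing, and Mptx1, with a mean of 420 FPKM, was the only 1 of the 2 that did.

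The colons with abundant Mptx1 thus gave almost no fragments of its copy. Per kilobase of transcript, Mptx1 was 10065 times Mptx2 in Gm31629-/- mouse 1 (exact 95% interval 2786 to 83112) and 5851 times in Gm31629-/- mouse 3 (1619 to 48321), and at least 1629 times in Gm31629-/- mouse 2, taking 3 fragments for Mptx2. These intervals overlap, and they cover counting error only. Over the 3 Gm31629-/- libraries together, 36951 fragments of Mptx1 stood beside 4 of Mptx2, a ratio of 9180 (3585 to 33694). In WT mice the ratio was at least 20.9, 11.9, and 1.66, bounds that are set by the few Mptx1 fragments. Whether the 4 fragments came from Mptx2 or from Mptx1 molecules that match both copies was not tested.

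By FPKM, Mptx1 ranked 20, 114, and 46 among all listed genes in the Gm31629-/- libraries and 7048, 8514, and 13626 in the WT libraries. It took 0.110%, 0.0267%, and 0.0641% of all mapped fragments in Gm31629-/- mice, and at most 0.000341% in a WT mouse. Mptx2 ranked 19196 and 18319 in Gm31629-/- mice 1 and 3, among 23600 and 22456 genes above 0, and was at 0 elsewhere. Mptx1 was then set against Epcam, an adhesion molecule of all intestinal epithelial cells, which had 1179, 990, and 1158 FPKM in Gm31629-/- mice and 1141, 1164, and 1007 FPKM in WT mice. The level of Mptx1 was 1.17, 0.337, and 0.693 times that of Epcam in Gm31629-/- mice and 0.00373, 0.00215, and 0.000331 times in WT mice. In Gm31629-/- mouse 1 the pentraxin transcript therefore exceeded that of Epcam itself. Relative to the summed FPKM of 9 epithelial markers, Mptx1 was 23.2%, 5.43%, and 10.9% in Gm31629-/- mice against 0.0406%, 0.0225%, and 0.00325% in WT mice. In whole tissue, fewer cells of a type and less RNA per cell cannot be told apart.

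**Figure D2:**
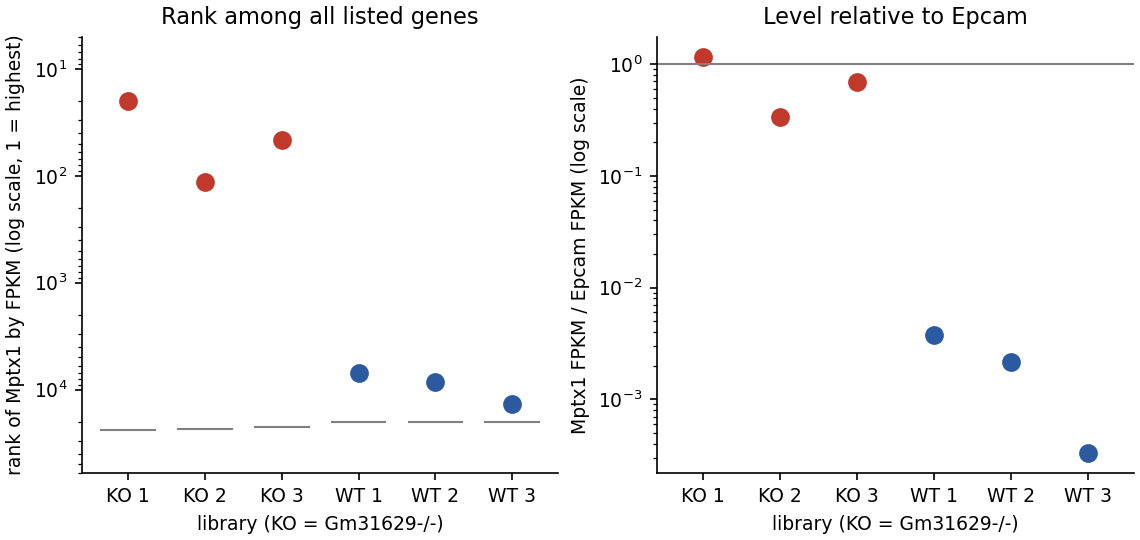
Left, rank of Mptx1 by FPKM in each library (log axis, 1 is the highest gene), with grey bars at the number of genes above 0; right, FPKM of Mptx1 divided by that of Epcam (log axis), with a line at a ratio of 1. The Gm31629-/- libraries rank between 20 and 114 and the WT libraries between 7048 and 13626, and 1 Gm31629-/- library lies above the line.

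Markers of epithelium, smooth muscle, and leukocytes differed between the groups, and these values stand beside the Mptx1 result. Over all tested genes 18.4% were called higher and 4.64% lower. Of 9 general epithelial markers, 0 were called higher and 4 lower, with a median log2 fold change of −0.51 and a summed level of 5926 to 7337 FPKM in Gm31629-/- mice and 10245 to 11128 FPKM in WT mice. The other 5 were not called, among them Epcam (log2 fold change 0.01, limma adjusted p = 0.982) and the adhesion gene Cdh1 (−0.04, adjusted p = 0.844). The intestinal homeobox gene Cdx2 had 82.1, 11.6, and 14.9 FPKM against 200, 238, and 234 FPKM (log2 fold change −3.14, limma adjusted p = 0.00847), and Cdx1, its paralog, fell by 1.19 (adjusted p = 0.00502), or by 0.96 without Gm31629-/- mouse 2. The keratins Krt8 and Krt19 fell by 1.05 and 1.00 (adjusted p = 0.00777 and 0.00698), and without Gm31629-/- mouse 1 by 0.91 and 0.87, under the fold threshold, as did Krt19 without WT mouse 2 (0.96) and on the TPM scale (0.99). With no filter on low values Krt8 had an adjusted p of 0.0891. Markers of smooth muscle went the other way, with 9 of 10 called higher, a median of 6.04, and a summed level of 1423 to 2313 FPKM against 11.9 to 35.4 FPKM. Acta2, smooth muscle actin, had 641, 579, and 453 FPKM in Gm31629-/- mice and 5.01, 14.2, and 5.53 FPKM in WT mice. Of 9 leukocyte markers 8 were called higher (median 2.62; summed level 391 to 451 FPKM against 19.8 to 27.9 FPKM), among them S100a9, a neutrophil calprotectin subunit (4.16), and Jchain, the joining chain of secreted IgA (3.98). The part of these shifts in the Mptx1 result was not tested. When libraries were scaled to these 9 epithelial markers (chosen after the data had been seen), the log2 difference of Mptx1 was 8.54.

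Genes of position along the gut were examined because the 2 copies are known from different parts of it. The posterior homeobox gene Hoxd13, active in the hindmost gut, had 8.12, 19.2, and 16.4 FPKM in Gm31629-/- mice and 0 fragments in each WT mouse, although both groups are labelled distal colon (limma adjusted p = 0.000281). Hoxb13 had 59.0, 57.0, and 133 FPKM against 13.3, 5.66, and 6.03 FPKM (log2 fold change 3.15, adjusted p = 0.00155), and Hoxa13 reached 34.0 FPKM in Gm31629-/- mice and 17.7 FPKM in WT mice, with overlapping groups (0.89, adjusted p = 0.0976, and called at 1.25 and 0.0263 without Gm31629-/- mouse 2). Of 6 posterior Hox genes listed, 4 were tested and 3 called higher (median 2.19), against 18.4% of all tested genes. Small intestinal genes had no call in the reported fit. Lct, lactase of the brush border, and Apoa4, an apolipoprotein of absorbed fat, were below 0.06 FPKM in all 6 libraries, and none of the 4 tested genes of this list was called (median −0.77). Gata4, a transcription factor, had 0.0418, 0.222, and 0.0697 FPKM against 1.05, 0.896, and 0.899 FPKM, without overlap (−0.81, limma adjusted p = 0.00484, under the fold threshold). Sis, sucrase-isomaltase, was not tested, at 0.0655, 0.0653, and 0.0146 FPKM against 0.413, 0.469, and 0.257 FPKM. Of the 4 tested genes 1 had a change above 0, and by voom 1 was called lower. The ileal bile acid transporter Slc10a2 had 30.0, 2.56, and 0.970 FPKM in Gm31629-/- mice and 7.75 to 10.5 FPKM in WT mice, so only Gm31629-/- mouse 1 was above the WT range (log2 fold change −0.72, adjusted p = 0.548). Without that mouse it was called lower (−1.90, adjusted p = 0.00307), and without Gm31629-/- mouse 3 its log2 fold change was 0.08. Fabp6, an ileal binding protein for bile acids, had 1.47, 4.07, and 1.48 FPKM against 8.13, 3.13, and 11.2 FPKM (−1.30, adjusted p = 0.0535), and it was called lower without Gm31629-/- mouse 2 (−1.64, adjusted p = 0.0304) or WT mouse 2 (−1.75, adjusted p = 0.0188), and with all 6 mice by the median ratio (−1.49, adjusted p = 0.0292) or a pseudocount of 0.1 (−1.62, adjusted p = 0.0482). Rbp2, a retinol binding protein of absorptive cells, had 62.3, 4.51, and 23.5 FPKM against 7.08 to 10.8 FPKM (1.05, adjusted p = 0.307, and 0.0115 without Gm31629-/- mouse 2). Whether the 2 groups were sampled at the same distance from the anus was not tested.

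Paneth and deep crypt secretory cells, the crypt cells in which mucosal pentraxin has been described, gave no common direction. Of 18 markers 10 were listed and tested, the other 8, all α-defensins, were not analysed here, and 1 was called higher and 3 lower (median −0.08). Lyz1, the lysozyme of Paneth cells, rose from 0.264 to 0.428 FPKM in WT mice to 9.72, 4.16, and 4.96 FPKM in Gm31629-/- mice (log2 fold change 2.36, limma adjusted p = 0.00107), a level far below that of Mptx1. The ribonuclease Ang4 had 116, 22.5, and 70.7 FPKM against 20.2, 22.5, and 16.3 FPKM, so mouse 2 lay within the WT range (1.50, adjusted p = 0.0554), and without that mouse Ang4 was called higher (2.16, adjusted p = 0.00171), as it was with all mice on the TPM scale (1.51, adjusted p = 0.0477). Among the 3 lower genes was Reg4, a lectin of deep crypt secretory cells, with 3.94, 14.6, and 3.84 FPKM against 40.3, 49.7, and 90.6 FPKM (limma adjusted p = 0.00376). The other 2 were the protease Mmp7 (−1.94) and the crypt transcription factor Sox9 (−1.12). Over all genes 18.4% were called higher and 4.64% lower.

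Goblet cells, which fill the mucus layer, showed a split. Of 10 markers 4 were called higher and 2 lower (median −0.39), and after rescaling by the median ratio 3 were higher and 4 lower. In the reported fit 18.4% of all tested genes were called higher and 4.64% lower. Zg16, a lectin that binds Gram-positive bacteria in mucus, had 7827, 5355, and 6977 FPKM in Gm31629-/- mice and 1740, 1775, and 1196 FPKM in WT mice (limma adjusted p = 0.00123). Clca1, a mucus-processing protease, rose by 2.96 and the trefoil peptide Tff3 by 1.71, whereas the chief mucin Muc2 had 992 to 1188 FPKM against 1154 to 1399 FPKM (−0.26, adjusted p = 0.272). Retnlb, a bactericidal protein of goblet cells, fell by 1.44. The disulfide isomerase Agr2 was called lower at the fold threshold itself, a call lost without Gm31629-/- mouse 1, Gm31629-/- mouse 2 (−0.87), or WT mouse 1 (−0.79), and on the TPM scale (−0.99). Of 8 genes of absorptive colonocytes, 0 were called higher and 2 lower, namely the carbonic anhydrase Car1 (−2.13) and the guanylin family peptide Guca2b (−2.65, limma adjusted p = 0.0132, and 0.0516 without WT mouse 3). Without Gm31629-/- mouse 1, 4 of the 8 were called lower, and without Gm31629-/- mouse 2, 3 were called higher. The order of Mptx1 within Gm31629-/- mice, with mouse 1 highest and mouse 2 lowest, was shared by 4 of these 8 genes and by 3 of the 10 goblet genes, where 14.9% of all tested genes had it. Smooth muscle genes had it as often as goblet genes, in 3 of 10. It was also found in 2 of 9 general epithelial markers, 2 of 10 Paneth and deep crypt markers, and 0 of 9 leukocyte markers.

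The other pentraxins were scarce. Of 7 in the family list, Crp, Apcs, and Ptx4 were not analysed here, and the other 4 are long pentraxins. Ptx3, which macrophages and endothelium release in inflammation, had 2.39, 1.11, and 0.345 FPKM in Gm31629-/- mice and 0, 0.0621, and 0.0198 FPKM in WT mice, or 118, 55, and 17 fragments against 0, 3, and 1. It was called higher (log2 fold change 1.05, limma adjusted p = 0.0325), a call lost without Gm31629-/- mouse 2 (0.0659), WT mouse 1 (0.0894), WT mouse 2 (0.0764), or WT mouse 3 (0.0963), and after rescaling by the median ratio, where the log2 fold change was 0.96, or with no filter on low values (adjusted p = 0.0594). Without Gm31629-/- mouse 1, Ptx3 fell under the minimum mean of 0.5 FPKM and was not tested. Nptxr, the membrane receptor of the neuronal pentraxins, had 3.40, 3.04, and 1.35 FPKM against 0.125, 0.129, and 0.144 FPKM (1.61, adjusted p = 0.00285). Nptx2, a synaptic pentraxin, had 0.300 to 1.71 FPKM against 0.328 to 1.24 FPKM, with overlapping groups (0.06, adjusted p = 0.887, and −0.18 without Gm31629-/- mouse 2 or WT mouse 2), and Nptx1 stayed under 0.1 FPKM in all 6 libraries. No other pentraxin in the table therefore came near the level of Mptx1 in the Gm31629-/- libraries, and their summed level was at most 6.18 FPKM.

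The molecules through which pentraxins are known to act were higher throughout. All 11 receptor and complement genes of the list were called higher (median log2 fold change 3.31), against 18.4% of all genes, and for all 11 the groups did not overlap, as for 57.8% of all genes. C1qa, a chain of the complement starter that pentraxins bind, had 134, 242, and 124 FPKM in Gm31629-/- mice and 13.2, 14.4, and 12.3 FPKM in WT mice (3.49, limma adjusted p = 0.000265). C3, the central complement component, had 186, 314, and 75.6 FPKM against 5.14, 4.51, and 7.01 FPKM (4.68, adjusted p = 0.000615), and C4b rose by 4.26. The Fcγ receptor genes Fcgr1, Fcgr2b, Fcgr3, and Fcgr4, whose products take up pentraxin-coated targets, rose by 2.07, 3.06, 3.20, and 3.35. Most of these are genes of macrophages and moved with the leukocyte markers given above, and the part of those cells was not tested. Within Gm31629-/- mice, all 5 Fc receptor genes, counting Fcer1g, were highest in mouse 2, the mouse with the lowest Mptx1 of the 3.

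**Figure D3:**
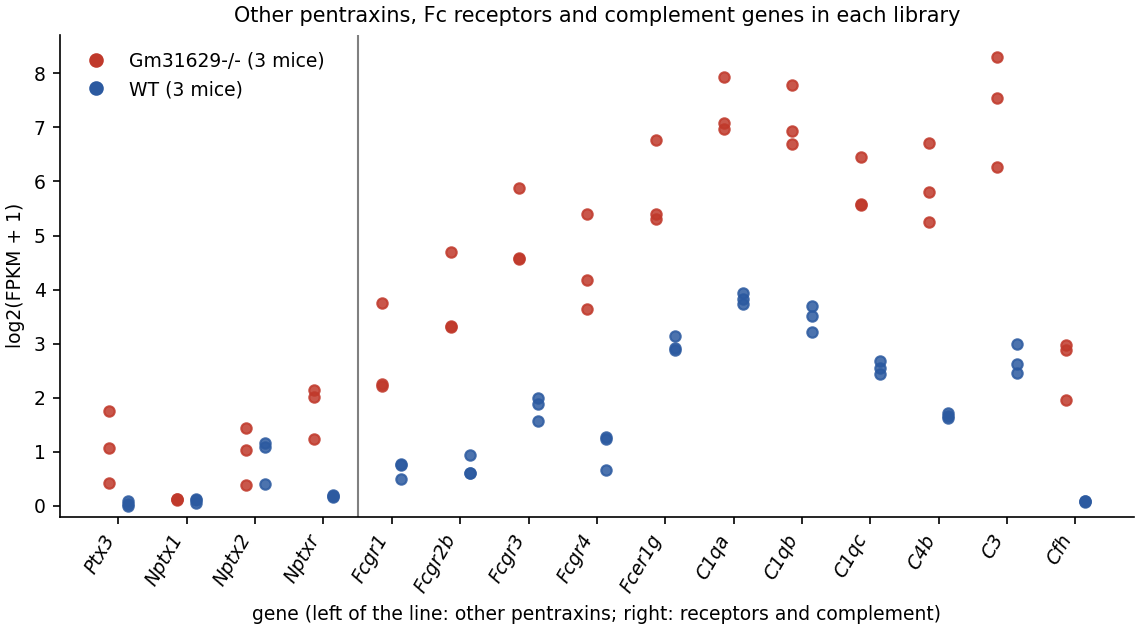
Level of the other pentraxins (left of the line) and of Fc receptor and complement genes (right) as log2(FPKM + 1), with 1 point for each of the 3 Gm31629-/- mice (red) and 3 WT mice (blue). The 3 Gm31629-/- points lie above the 3 WT points for all 11 genes on the right and for Ptx3 and Nptxr on the left, and they overlap for Nptx2.

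Short pentraxins of the liver belong to the acute phase response, driven by IL-6, IL-1, and related cytokines through STAT3 and C/EBP factors, so other acute phase genes were examined. Of 14 acute phase genes listed, 9 were tested and 7 called higher, 0 lower (median log2 fold change 2.83). Of all tested genes, 18.4% were called higher and 4.64% lower (median 0.15). Saa1, serum amyloid A, had 1066, 480, and 1301 FPKM in Gm31629-/- mice and 237, 246, and 166 FPKM in WT mice (2.03, limma adjusted p = 0.00570; its near copy Saa2 may share reads). Serpina3n, a protease inhibitor with close paralogs, rose by 6.44 and haptoglobin, Hp, by 3.80. Like Mptx1, Saa1 was lowest in Gm31629-/- mouse 2, but its highest value was in mouse 3, and none of the 9 genes had the full order of Mptx1. Liver genes themselves were near 0 or not called, with albumin, Alb, at 0.0227 to 0.116 FPKM in the 6 libraries and 0 of 3 tested hepatocyte markers called (median 0.88). Hpd, at −1.27 with an adjusted p of 0.0547, was called lower by the median ratio (−1.51, adjusted p = 0.0307), on the TPM scale (0.0493), with the replicate block (0.0259), and by voom (0.0451). Without Gm31629-/- mouse 1, the amino acid enzymes Tat and Hpd of this list were called higher (1.07, adjusted p = 0.0389) and lower (−1.70, adjusted p = 0.0125).

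Of 15 cytokines, receptors, and transcription factors of acute phase signalling, 9 were called higher and 0 lower (median 1.73). The shares over all tested genes were 18.4% and 4.64%. Cebpd and Cebpb, C/EBP factors of the acute phase, rose by 3.34 and 3.00 on the log2 scale (limma adjusted p = 0.000556 and 0.00365). Il6 had 0.470, 4.53, and 2.65 FPKM against 0.0438 to 0.0915 FPKM (1.54, adjusted p = 0.0277), a call kept without Gm31629-/- mouse 1 and lost in the other 5 fits that left out a mouse (adjusted p = 0.0537 to 0.0865). Socs3, a feedback inhibitor induced by STAT3, had 27.5, 180, and 60.6 FPKM against 28.7 to 34.0 FPKM, so mouse 1 was below all 3 WT mice (1.12, adjusted p = 0.163, and 1.75 and 0.0184 without it). Il22, a cytokine that acts on gut epithelium, had 0.0490, 16.9, and 2.11 FPKM in Gm31629-/- mice and at most 0.390 FPKM in WT mice (1.73, adjusted p = 0.158, and 2.67 and 0.0207 without mouse 1). In 11 of these 15 genes mouse 2 was the highest and mouse 1 the lowest of the Gm31629-/- mice, the reverse of the order of Mptx1, and 22.9% of all tested genes had that reverse order. With 3 mice this is a description only.

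Other proteins that bind microbes, most of them secreted, did not move as a group. Of 13 lectins and collectins listed by name, 11 were in the table and 7 tested, with 2 called higher and 2 lower (median −0.09). The 2 higher were Zg16, which also counts as a goblet marker, and the scavenger receptor collectin Colec12 (3.34). Reg3b and Reg3g, antibacterial C-type lectins of the epithelium, were the 2 lower. Reg3b had 48.1, 1.71, and 52.5 FPKM in Gm31629-/- mice and 4811, 6704, and 4247 FPKM in WT mice (log2 fold change −8.07, limma adjusted p = 0.00161), and Reg3g fell by 7.42 (adjusted p = 0.000360). Beside them, Mptx1 was at most 4.26 FPKM in WT mice and at least 334 FPKM in Gm31629-/- mice.

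**Figure D4:**
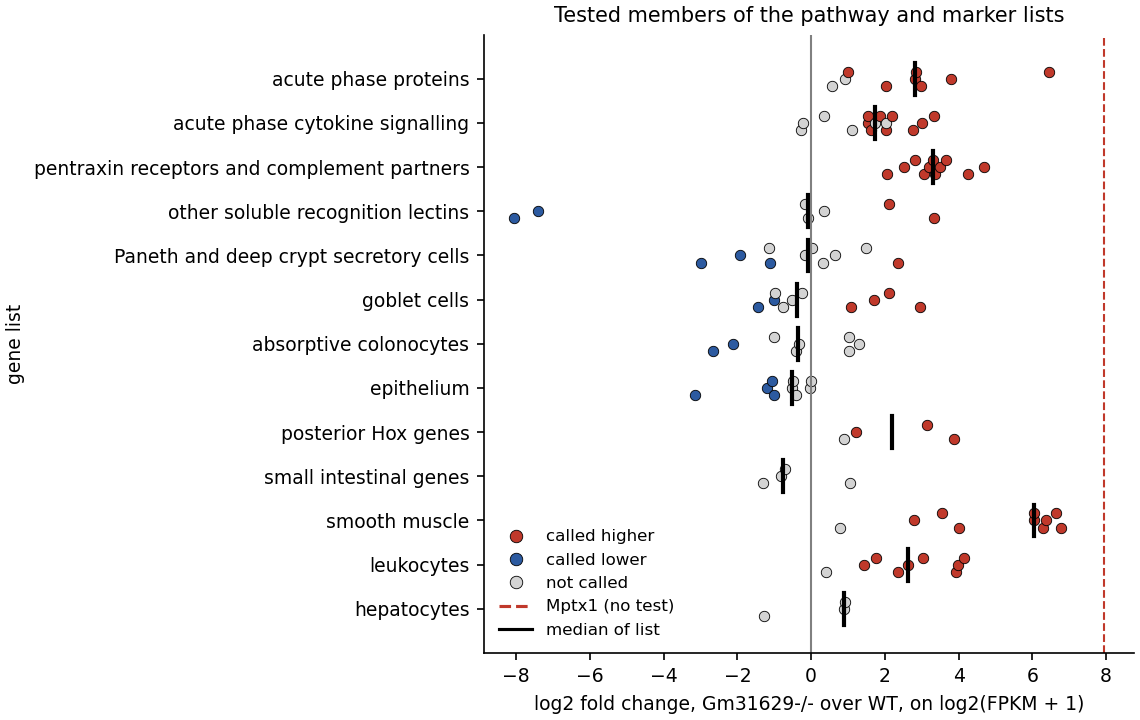
Log2 fold change (Gm31629-/- over WT, on log2(FPKM + 1)) of every tested member of 13 gene lists, with red for genes called higher, blue for called lower, grey for not called, a black bar at the median of each list, and a dashed line at the difference of Mptx1, 7.95. Smooth muscle genes, with a median of 6.04, come nearest to the dashed line, and Reg3b and Reg3g lie alone at the far left.

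The genes most like Mptx1 across the 6 libraries were taken by Pearson's r of log2(FPKM + 1) over all tested genes. They were Tmem126b (r = 0.9982), Zg16 (0.9981), Gm43681 (0.9975), Myl6 (0.9964), and Prorsd1 (0.9957), each over n = 6 libraries that share 2 genotypes, so a large part of each r is the step between genotypes. All 5 had the order of Mptx1 within Gm31629-/- mice, which their choice by r over these same libraries favours, so it is no separate result. Their differences were far smaller than that of Mptx1, from 0.63 for Myl6, a myosin light chain (293, 267, and 287 FPKM against 184, 189, and 172 FPKM), to that of Zg16 given above, the only 1 of the 5 past the fold threshold in the reported fit. Gm43681, at 0.94 there, passed it with a pseudocount of 0.1 (1.48), by voom (1.57), and without Gm31629-/- mouse 2 (1.03). For Mptx2 the nearest were Trbj1-5 (1.0000), Iglj3p (0.9993), Mppe1 (0.9988), Igkv5-45 (0.9949), and Gm23493 (0.9946), a likeness that rests on 4 fragments of Mptx2 in 2 libraries. Trbj1-5 itself had 2, 0, and 2 fragments and 0 in each WT mouse, the same counts as Mptx2.

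Mptx1 and Mptx2 lie on either side of the Ifi200 cluster of interferon-inducible DNA sensors. The tested genes around them changed less between genotypes than Mptx1. Since Mptx1 was chosen by its values in this comparison, that contrast is a description only. Within 500 kb of Mptx1, GENCODE M21 has 30 other genes, of which 8 were in the table and 4 tested. Of these 4, 3 were called higher and 0 lower (median 1.56), against 18.4% and 4.64% of all tested genes. The 3 were Mndal (1.78), Ifi203 (1.48), and Ifi205 (1.63), while Ifi211 had 7.73, 11.7, and 4.48 FPKM against 6.90, 0.436, and 1.46 FPKM (1.48, limma adjusted p = 0.0892, and 2.17 and 0.0155 without WT mouse 1). Fmn2, a formin gene that starts 171 kb from Mptx1, was at most 0.341 FPKM in any library and was not tested.

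Within 500 kb of Mptx2 were 30 other genes, 12 of them in the table and 8 tested, with 5 called higher, 0 lower (median 1.53). Ackr1, a chemokine-binding receptor of venules and erythrocytes that starts 56.0 kb from Mptx2, had 6.67 to 10.6 FPKM in Gm31629-/- mice and 0.0769, 0.356, and 0.0379 FPKM in WT mice (3.11, limma adjusted p = 0.000235). Cadm3, a neural adhesion molecule whose annotated span overlaps that of Ackr1, rose by 2.23, Ifi207 by 2.06, and Ifi209 by 1.82. Aim2, an inflammasome sensor, had 23.7, 21.4, and 15.5 FPKM against 9.68, 10.3, and 6.85 FPKM (1.09, adjusted p = 0.00715), or 0.97 without Gm31629-/- mouse 1, 0.93 without WT mouse 3, and 0.85 after rescaling by the median ratio, each under the fold threshold. Ifi206, Ifi213, and Ifi204 were not called, at 0.53, 0.48, and 1.24. Members of the Ifi200 family resemble each other, and reads could be split between them. Mptx2 was near 0 in the Gm31629-/- libraries, while 5 of the 8 tested genes around it were called higher, against 18.4% of all tested genes. The part of the shifts in tissue markers in these calls was not tested.

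**Figure D5:**
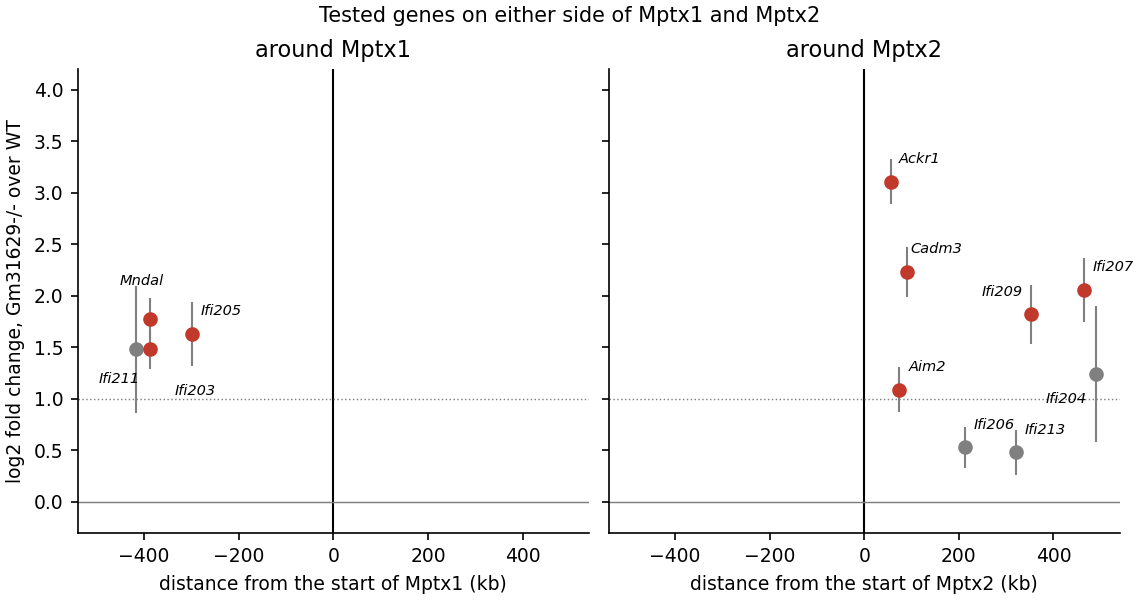
Log2 fold change with its standard error for the tested genes within 500 kb of the start of Mptx1 (left) and of Mptx2 (right), against the distance between gene starts in kb; red points are called higher and grey points are not called. Around Mptx1 the 4 genes lie between 1.48 and 1.78, and around Mptx2 the 8 genes lie between 0.48 and 3.11.

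The sequences upstream of the 2 genes are also alike, and they are printed because the copies differ so widely in level. The 229 bases before the annotated start of each gene, from RefSeq promoter sequences on GRCm38.p6, match at 194 of 236 aligned positions (82.2%, with 14 gaps). Capitals mark TATAA nearest the start and the paired sites GTTAAT and ATTAAC of HNF1, a transcription factor of liver and gut epithelium.
Mptx1, chr1:174330289-174330517, forward strand: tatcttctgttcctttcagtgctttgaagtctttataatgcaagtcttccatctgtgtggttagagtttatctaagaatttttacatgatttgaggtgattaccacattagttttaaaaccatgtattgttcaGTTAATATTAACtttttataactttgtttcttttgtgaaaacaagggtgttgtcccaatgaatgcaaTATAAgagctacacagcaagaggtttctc
Mptx2, chr1:173277778-173278006, reverse strand: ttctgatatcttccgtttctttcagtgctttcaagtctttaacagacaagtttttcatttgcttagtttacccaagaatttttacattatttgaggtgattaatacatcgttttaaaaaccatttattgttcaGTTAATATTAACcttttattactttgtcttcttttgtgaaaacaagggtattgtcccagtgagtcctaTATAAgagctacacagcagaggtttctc
Searched on both strands, TATAA had 5 matches in Mptx1 and 1 in Mptx2, the one nearest the start at position −29 of Mptx1 and −28 of Mptx2, and it is present in 20.9% of 32851 promoter windows of this length. GTTAAT began at position −96 in both and is present in 5.86% of promoters. The STAT motif TTCNNNGAA (6.37% of promoters) and the C/EBP motif TTGCNNAA (8.64%) had no match in either window, and the CDX motif TTTATNG (8.95%) matched only that of Mptx2, at position −107. These matches describe letters only, and the windows of the 2 copies did not differ in GTTAAT and the ATTAAC after it.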

How the data were processed

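RNA-Seq libraries of 6 mice, 3 of each genotype, were grouped by their labels. The authors deposited FPKM values in 6 columns, each taken here as 1 mouse, although their methods speak of pooled RNA. The submitters' processing notes name HISAT2 2.1.0, HTSeq 0.6.0, and GRCm38. The annotation is not given in the sources used here, and Gm31629 itself was not analysed here. Symbols and exon lengths came from GENCODE M21, which matched 27488 of 27546 identifiers. Fragments were recovered from FPKM, exon length, and depth, and 96.3% to 97.2% of the low values of a library (20 fragments or fewer) came within 0.1 of a whole number. Intervals and the floor of 3 fragments cover counting error only.

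Genotypes were compared with limma 3.58.1 (lmFit, eBayes with a trend; R 4.3.3) on log2(FPKM + 1) for genes with a mean of at least 0.5 FPKM, with Benjamini-Hochberg adjustment over all 14657. This scale understates changes of low genes, and FPKM is not corrected for abundant transcripts that take up fragments. An exact permutation test of 3 against 3 cannot go below 0.10. The code was tested on simulated data. The members and the 14 gene lists were chosen with earlier results of these data known. The genes named are the members, all pentraxins, in each other list the 2 with the highest mean and the 2 with the largest change, the 5 most correlated with each member, and tested genes within 500 kb. Other named genes of the lists were chosen after their values were seen. Alternatives were no filter, a mean of at least 5 FPKM, a pseudocount of 0.1, median ratio scaling, TPM scale, no trend, the replicate number as a block, voom on recovered fragments, and leaving out each mouse. Figures were drawn with matplotlib 3.10.9.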

Additional observations from a re-analysis of the deposited data

How the results depend on the processing

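The log2 difference of Mptx1 was 7.73 to 8.72 under another pseudocount or scaling (8.54 on epithelial markers, chosen after seeing the data) and 7.39 to 8.50 with each mouse left out, all within 1 SD between mice of the reported value. The ratio of Mptx1 to Mptx2 in Gm31629-/- mice could not be varied by pseudocount or scaling, and no log2 difference of Mptx2 was computed because both groups are at the floor. Genes called higher fell to 956 with a mean of at least 5 FPKM, where fewer genes are tested and 1 gene near Mptx1 or Mptx2 was called, and genes called lower went to 1217 by the median ratio, for which the cause was not tested. On recovered fragments, voom called 3651 genes higher and 992 lower. With the replicate number as a block, 2709 genes were higher and 648 lower, and same-numbered mice did not deviate together (correlations 0.04, −0.11, and 0.01), so the numbers do not pair the mice. Under the block 2 named genes, Hpd and Igkv5-45, gained a call and none lost one. Of 1017 values of 75 named genes under the alternatives, 26 lost a call, 28 gained one, and 4 turned in direction. Epcam, Cdh1, and Gata4 were not among these 75. The 4 were in Nptx2 (−0.05 by the median ratio, and −0.18 to 0.35 with each mouse left out) and Slc10a2 (−1.90 to 0.08 with each mouse left out).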
